A study of Bos taurus with 8 samples.

Results

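The monocarboxylate transporters and basigin are 6 genes: SLC16A1, SLC16A3, SLC16A4, SLC16A7, SLC5A8 and BSG. They were found by the gene names printed in the array files, and each has 1 probe, so 6 of the 15008 gene probes on the array are theirs. Of these 6 probes, 3 (SLC16A1, SLC16A3 and BSG) were well above background on all 8 arrays, and SLC16A1 and BSG were bright on each of them. SLC16A4 and SLC16A7 never rose above background, and SLC5A8 did so on 2 arrays. None of the 3 probes that could be tested differed between the diets past the threshold.

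Monocarboxylate transporters carry small acids such as lactate, pyruvate, ketone bodies and short-chain fatty acids across cell membranes. The products of SLC16A1, SLC16A3 and SLC16A7 move the acid together with a proton, whereas that of SLC5A8 is driven by sodium. MCT1, the product of SLC16A1, and MCT4, the product of SLC16A3, are helped to the plasma membrane by basigin, a membrane glycoprotein encoded by BSG. In the rumen, microbes ferment feed to acetate, propionate and butyrate. The epithelium takes these acids up, turns much of the butyrate into ketone bodies, and passes ketone bodies and lactate on to the blood.

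The samples are rumen epithelium of Holstein bulls with a rumen fistula, 7.4 months of age on average. The WP group received a high-grain diet in which wood kraft pulp (WP), fibre rich in cellulose, took the place of 50% of the corn flakes, and the control group received that high-grain diet with all of its corn flakes. The study fed 5 bulls in a cross-over of 14 days per diet with no wash-out, and both diets were measured in 4 of them (calves 21, 23, 24 and 25), which gives 4 WP arrays and 4 control arrays. Every sample thus comes from an animal on a high-grain ration. The sources used here do not say which diet each calf received first, so a carry-over between the periods was not tested.

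Between 9314 and 11917 gene probes per array were well above background, and no gene spot was saturated. The WP array of calf 24 stood apart: its negative control spots had a median signal of 4.06, against 1.2 to 1.9 on the other 7 arrays. Of the 3450 probes at background on those 7 arrays, 42.3% were well above background on that array alone. On the other arrays the same share ran from 0.5% to 7.06%. Of 15 genes listed as defining for rumen epithelium, 14 had a probe and 13 were well above background on all 8 arrays, among them the keratins KRT5 and KRT14. The exception, KRT4, was above background on the WP array of calf 24 only.

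The array reads each gene through a probe of 60 bases. Probes are shown for the clear signal of SLC16A1, the lack of signal of SLC16A4 and SLC16A7, and the signal of SLC5A8 on few arrays. These findings rest on the letters below. Coordinates are on UMD 3.1 as printed in the array files, and no annotation of exons or UTRs was used here.
SLC16A1, chr3:30557485-30557544, plus strand: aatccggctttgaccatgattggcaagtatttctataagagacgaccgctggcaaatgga
SLC16A4, chr3:33169368-33169427, plus strand: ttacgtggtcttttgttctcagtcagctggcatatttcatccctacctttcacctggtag
SLC16A7, chr5:53994315-53994374, minus strand: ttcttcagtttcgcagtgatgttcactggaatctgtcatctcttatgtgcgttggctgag
SLC5A8, chr5:65387837-65387896, minus strand: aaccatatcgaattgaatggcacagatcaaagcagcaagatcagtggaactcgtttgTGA
Capitals mark the last triplet of the SLC5A8 probe, a stop codon in the frame that runs from its first base with no earlier stop. The SLC16A3 probe lies on chromosome 19, 51244145 to 51244204, minus strand, and the BSG probe on chromosome 7, 44823476 to 44823535, plus strand.

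The 6 probes were alike in base composition, with 45% G and C in all but SLC5A8, which had 41.7%. No member's probe shared a run of 8 or more bases with that of another member. Against the other gene probes of the array, the longest shared runs were 14 bases, for SLC16A7 and BSG. The probes are thus distinct in sequence. How well each of them binds its transcript is not known, so the levels below are brightness of separate probes and not relative amounts of the 6 transcripts.

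A level is log2 of the processed spot signal minus the 75th percentile of that array, so that 0 is the brightness of the probe at that percentile. SLC16A1, the proton-coupled transporter of lactate and ketone bodies, had levels of 4.69, 4.64, 4.50 and 4.10 on the WP arrays of calves 21, 23, 24 and 25, and 3.95, 4.30, 4.26 and 4.22 on their control arrays. Its WP array was the higher one in calves 21, 23 and 24 and the lower one in calf 25, and the 2 diets overlapped. SLC16A1 averaged 4.48 ± 0.27 on WP and 4.18 ± 0.16 on control (SD, n = 4 calves). The processed signal of its probe ran from 3931 to 6445 over all arrays. In RNA from whole tissue, fewer cells of a type and less RNA per cell cannot be told apart.

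BSG, the membrane partner of MCT1 and MCT4, had levels of 5.55, 5.66, 5.94 and 5.44 on the WP arrays of calves 21, 23, 24 and 25, and 5.49, 5.97, 5.80 and 5.61 on their control arrays. The diets covered the same range, with the WP array higher in calves 21 and 24 and lower in calves 23 and 25. BSG averaged 5.65 ± 0.22 on WP and 5.72 ± 0.21 on control (SD, n = 4). Its spread over the 8 arrays, an SD of 0.20, was smaller than that of SLC16A1 at 0.26 and than the median of all tested probes at 0.284. Averaged over both diets, the level of BSG was 5.87 in calf 24 and 5.81 in calf 23, and 5.52 in each of calves 21 and 25.

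SLC16A3, which encodes the lactate exporter MCT4, was dim. Its processed signal was 12.3, 15.5, 38.2 and 23.2 on the WP arrays of calves 21, 23, 24 and 25, and 43.4, 21.5, 22.2 and 10.9 on their control arrays. The weakest signal that counted as well above background was 16.9 on the WP array of calf 24 and 4.93 to 8 elsewhere. SLC16A3 was thus measured throughout, but in places close to the limit of its array. On the control array of calf 25 it read 10.9 against a limit of 6.45. As levels, the WP arrays read -4.02, -3.70, -2.90 and -3.34 and the control arrays -2.89, -3.74, -3.67 and -4.27. The control array of calf 21 and the WP array of calf 24 were the highest, and the control array of calf 25 was the lowest. The WP array of calf 24 is the one with the raised control spots. Its negative control spots had a median of 4.06 and its control probes against the viral E1A sequence one of 40.7, beside 38.2 for SLC16A3. The part of that array's background in the SLC16A3 value was not tested. The mean was -3.49 ± 0.48 on WP and -3.64 ± 0.57 on control (SD, n = 4).

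**Figure D1:**
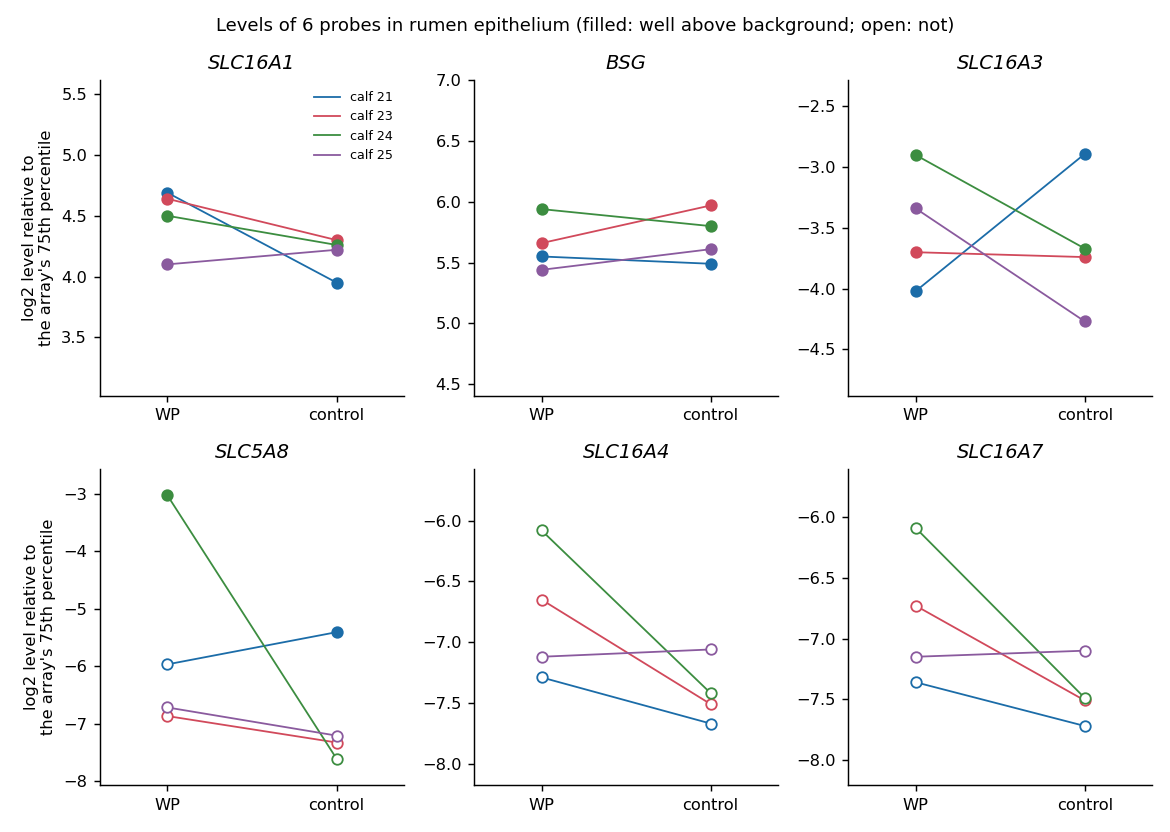
Log2 level of each of the 6 probes, relative to the array's 75th percentile, on the WP and control arrays, with a line for each calf; filled points were well above background and open points were not. SLC16A1, BSG and SLC16A3 are filled throughout, SLC16A4 and SLC16A7 are open throughout, and SLC5A8 is filled on the WP array of calf 24 and the control array of calf 21; the vertical ranges differ between panels.

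SLC16A4, which encodes MCT5, a relative whose cargo is not firmly known, was at background on 4 WP and 4 control arrays. The same held for SLC16A7, which encodes MCT2, a transporter with high affinity for pyruvate and lactate. Their signals ran from 1.27 to 4.21 and from 1.21 to 4.18. On all 8 arrays the scanner software had replaced the signal of these 2 probes with a surrogate, a small value it writes for spots it cannot tell from background. No fold can be given for either gene. Without a filter on dim probes, the WP minus control values were 0.63 for SLC16A4 and 0.62 for SLC16A7. The 254 probes with a surrogate on every array had a median of 0.60, with a 5th percentile of 0.56 and a 95th of 0.63, and the values of both genes lie in that range.

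SLC5A8, the sodium-coupled carrier SMCT1, had signals of 3.18, 1.72, 34.9 and 2.23 on the WP arrays of calves 21, 23, 24 and 25, and 7.57, 1.79, 1.44 and 1.43 on their control arrays. It was well above background on 1 of 4 WP arrays (calf 24) and 1 of 4 control arrays (calf 21). The WP value of calf 24 comes from the array with the raised control spots. There the negative controls had a median of 4.06, and the weakest signal that counted as well above background was 16.9. Probes against the viral E1A sequence, put on the array as controls, read 40.7 on that array (1.36 to 1.97 elsewhere). The part of that array's background in the SLC5A8 value was not tested. No difference between the diets was measured for SLC5A8. By contrast, SLC5A12, which encodes the related carrier SMCT2 and was listed beside the members, was well above background on all 8 arrays, with a median signal of 12274.

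The diets were compared with limma, with calf as a block. SLC16A1 was higher on WP by 0.30 ± 0.35 (SD, n = 4; SE of the fit 0.17), a factor of 1.23 with a 95% interval of 0.907 to 1.66, and did not pass the threshold (limma adjusted p = 0.663). The differences within calves 21, 23, 24 and 25 were 0.74, 0.33, 0.24 and -0.12. SLC16A3 gave 0.15 ± 0.94 (SD, n = 4), a factor of 1.11 with an interval of 0.577 to 2.14 (limma adjusted p = 0.901). Its differences of -1.13, 0.038, 0.77 and 0.94 ran in opposite directions in calf 21 and in calves 24 and 25. BSG gave -0.068 ± 0.20 (SD, n = 4), a factor of 0.954 with an interval of 0.755 to 1.2 (limma adjusted p = 0.874).

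These 3 members stand in an array on which no probe passed: 0 of 10236 tested probes (0%) had an adjusted p under 0.05, and 715 (6.99%) had an unadjusted p under 0.05, none of them a member. In none of the 3 did the WP and control values separate without overlap, which 4.86% of tested probes did. None of the 3 moved the same way in 4 of 4 calves, against 12% of tested probes that were higher and 5.41% that were lower in all 4. A positive mean difference, as for SLC16A1 and SLC16A3, was found in 64.4% of tested probes and a negative one, as for BSG, in 35.6%, and the median difference of all tested probes was 0.087. Relative to that median, SLC16A1 lay 0.21 higher, SLC16A3 0.066 higher and BSG 0.16 lower. Of the 3, SLC16A1 kept its sign under all 16 alternatives, from 0.15 without calf 21 to 0.44 without calf 25. Those for the calf block, slide row as a further block, the prior and the dim-probe filter cannot change its mean difference of 0.30. The authors' value table, which equals log2 processed signal minus a constant per array, gave 0.30 again. SLC16A3 turned to -0.28 with quantile scaling and to -0.15 with cyclic loess scaling. Leaving out calf 21 gave 0.58 for SLC16A3, leaving out calf 24 gave -0.051, and leaving out calf 25 gave -0.11. BSG was 0.010 without calf 23 and -0.14 without calf 24.

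**Figure D2:**
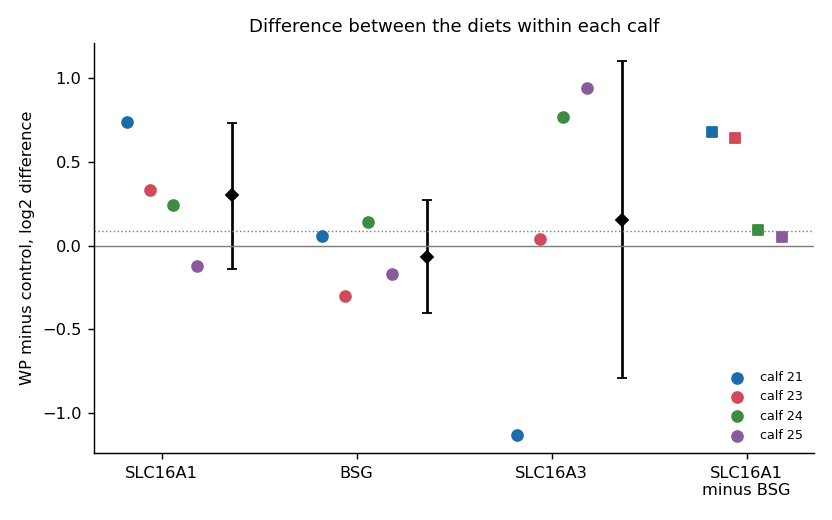
WP minus control log2 difference within each calf for the 3 tested probes (circles) and for SLC16A1 minus BSG on the same array (squares); diamonds with bars are the limma estimate and its 95% interval, and the dotted line is the median of all tested probes, 0.087. The intervals of SLC16A1, BSG and SLC16A3 all include 0, and the 4 squares all lie above 0.

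A difference between 2 probes of the same array does not change with any constant subtracted from that array, and it was computed for SLC16A1 and its partner BSG after seeing the data. SLC16A1 minus BSG read -0.86, -1.03, -1.45 and -1.34 on the WP arrays of calves 21, 23, 24 and 25, and -1.54, -1.66, -1.54 and -1.39 on their control arrays. SLC16A1 was thus nearer to BSG on WP in 4 of 4 calves, by 0.68, 0.64, 0.093 and 0.048, with a mean of 0.37 ± 0.34 (SD, n = 4). The size of this shift differed between calves 21 and 23 on the one side and calves 24 and 25 on the other. These pairs of calves also differ in the slide row of their WP arrays. Of the other tested probes, 18.3% were also higher against BSG in 4 of 4 calves, and 23.7% had a mean shift at least as large. No test was run on this difference. The same quantity for SLC16A3 minus SLC16A1 was -1.87, -0.30, 0.53 and 1.06 in calves 21, 23, 24 and 25.

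The 8 arrays fill 2 rows of 1 slide, and in row 1 lie WP for calves 21 and 23 and control for calves 24 and 25. With slide row as a further block, SLC16A1 gave 0.30 (limma adjusted p = 0.501), SLC16A3 0.15 (limma adjusted p = 0.768) and BSG -0.068 (limma adjusted p = 0.819). Rows and calves are balanced over the diets, so this block can change the p-values but not the mean differences. Within row 1 the WP minus control values were 0.42 for SLC16A1, 0.11 for SLC16A3 and -0.10 for BSG, and within row 2 they were 0.17, 0.20 and -0.036. The mean difference of SLC16A1 was 0.54 in the 2 calves with WP in row 1 and 0.057 in the 2 with WP in row 2. For SLC16A3 these means were -0.54 and 0.85, opposite in sign. For SLC16A1 minus BSG they were 0.66 and 0.071. Slide row and the pair of calves cannot be told apart here.

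Over the 8 arrays, the genes most like SLC16A3 in Pearson correlation, among 8489 named genes above background throughout, were CTSS (r = 0.989), IRF8 (r = 0.972) and TTI2 (r = 0.971). CTSS encodes cathepsin S, a protease of antigen-presenting cells, IRF8 a transcription factor of macrophages, dendritic and B cells, and TTI2 a co-chaperone of large kinases. CTSS differed between WP and control by -1.11, 0.16, 0.73 and 0.78 in calves 21, 23, 24 and 25, and IRF8 by -1.99, 0.43, 0.90 and 1.07, each in the order seen for SLC16A3. Leaving out both arrays of calf 24, a check added after seeing the data, r was 0.98 for CTSS and 0.97 for IRF8 over 6 arrays. These genes were picked as the highest of many, 2 arrays come from each calf, and all arrays share a slide, so the values describe these arrays.

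Of 10 listed markers of macrophages and dendritic cells 5 had a probe and 4 were tested, and their median WP minus control differences were -1.05, -0.19, 0.72 and 0.99 for calves 21, 23, 24 and 25. With SLC16A3 the mean level of the 4 correlated at r = 0.83 over 8 arrays and 0.79 without the 2 arrays farthest from the median. CSF1R, the receptor that macrophages depend on, had r = 0.94, AIF1 0.75, CD68 0.30 and CD14 0.071. CSF1R and AIF1 had the calf order of SLC16A3, and CD68 and CD14 did not. The summed brightness of the 5 probes, in multiples of the array's 75th percentile, was 3.02 to 6.08 on WP arrays and 3.2 to 8.65 on control arrays, and none of the 5 was at background throughout. T and NK cell markers (7 of 10 tested, summed 1.22 to 2.61 on WP and 1.1 to 2.58 on control) gave r = 0.85, which was 0.41 without the 2 farthest arrays. Fibroblast markers (9 of 10 tested, summed 20 to 44.7 on WP and 11.7 to 41 on control) gave 0.82 and 0.88. The collagen genes COL1A2 and COL3A1 were the highest of these 9. Their r with SLC16A3 was 0.96 and 0.95, and 0.90 and 0.91 without the 2 farthest arrays. The others were FBLN1 at 0.74, LUM 0.71, PDGFRA 0.69, COL1A1 0.68, DCN 0.34, DPT 0.28 and POSTN -0.16. Without the 2 farthest arrays these became -0.012, 0.73, 0.75, -0.59, -0.18, 0.23 and 0.77, so the list was not uniform. COL1A2 differed between WP and control by -1.49, 0.39, 1.34 and 2.20 in calves 21, 23, 24 and 25, the calf order of SLC16A3. No marker of these or the remaining lists passed the threshold. The median difference was 0.61 for fibroblast, 0.52 for endothelial and 0.57 for smooth muscle markers, and -0.016 for macrophage and dendritic, -0.040 for T and NK and -0.27 for B and plasma cell markers. These medians moved with the calves and the scaling: fibroblast markers gave 0.35 without calf 25, endothelial markers 0.15 without calf 23, and smooth muscle markers 0.19 with quantile or cyclic loess scaling and 0.29 without calf 24. The part of leukocytes or connective tissue in the SLC16A3 values was not tested.

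**Figure D3:**
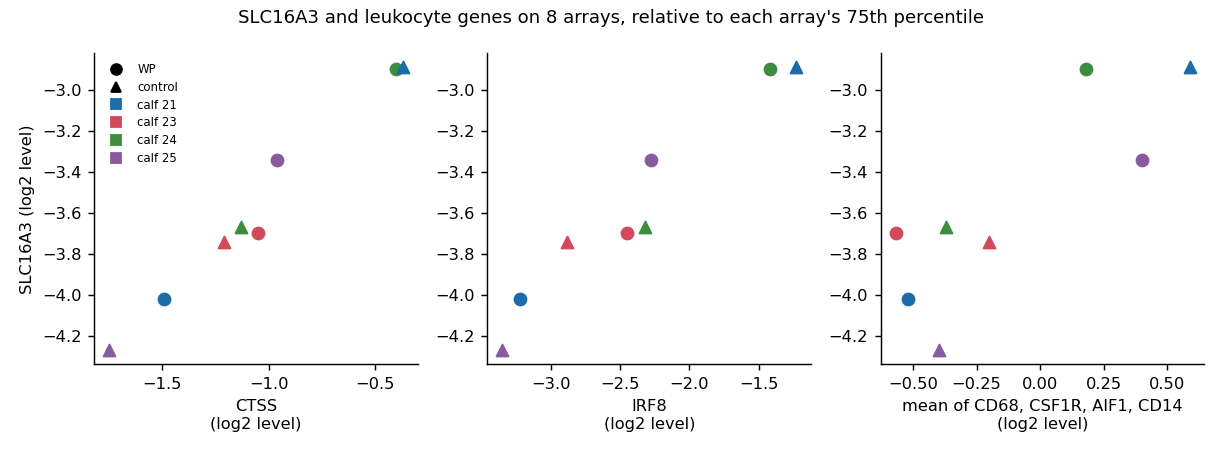
Log2 level of SLC16A3 against CTSS, IRF8 and the mean of 4 macrophage and dendritic cell markers on the 8 arrays, each relative to the array's 75th percentile; circles are WP, triangles control, and colours are calves. SLC16A3 is higher where CTSS (r = 0.989), IRF8 (r = 0.972) and, more loosely, the marker mean (r = 0.83) are higher, and the diets are mixed along each line.

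The genes most like SLC16A1 were ITFG2 (r = 0.969), a subunit of the KICSTOR complex that restrains mTORC1, PHC3 (r = 0.955), a Polycomb protein, and MAT2B (r = 0.953), the regulatory subunit of methionine adenosyltransferase. With the macrophage and dendritic cell markers its r was -0.71, but -0.21 without the 2 farthest arrays. With the mean level of smooth muscle markers (4 of 8 tested, summed 7.08 to 10.2 on WP and 5.87 to 9.82 on control) r was 0.76. It was 0.96 without calf 24 and 0.93 without the 2 farthest arrays. No single marker came near this: r was 0.36 for ACTA2, 0.60 for MYH11, 0.63 for TAGLN and 0.57 for LMOD1. Without the 2 farthest arrays these were 0.46, 0.16, 0.54 and 0.19. MYH11 and LMOD1 were dim, with median signals of 10.1 and 7.48. The part of smooth muscle in the SLC16A1 values was not tested. With the 10 tested enzymes of lactate, pyruvate and ketone bodies, taken as a mean level, r was 0.84, and 0.58 without the 2 farthest arrays. Within that list r was 0.71 for BDH1, the mitochondrial ketone body dehydrogenase, but 0.17 without the 2 farthest arrays, and -0.19 for LDHA. For BSG the nearest genes were PPP3R1 (r = 0.961), the regulatory subunit of calcineurin, VNN2 (r = 0.954), a vanin, and TRMU (r = 0.934), an enzyme that modifies mitochondrial tRNA. Between members, r was 0.31 for SLC16A1 and BSG, -0.35 for SLC16A1 and SLC16A3, and 0.062 for SLC16A3 and BSG. All are over the same 8 arrays of 4 calves and are given as descriptions.

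Red blood cells carry both MCT1 and basigin, so their markers were read beside these genes. All 9 listed had a probe and 2 were tested. HBA, a globin, was well above background on 8 arrays, as was AHSP, which stabilises it. HBB, SLC4A1 and HEMGN were above background on the WP array of calf 24 only, ALAS2 on 1 control array, and HBM and EPB42 on 1 array of each diet. The summed brightness of the 9 probes was 7.35 to 9.23 on WP and 6.56 to 8.56 on control. The mean of the 2 tested markers had r = 0.69 with SLC16A1, and 0.76 without the 2 farthest arrays. With BSG it was -0.20, and 0.43 without those arrays. The part of blood in either gene's values was not tested.

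Around the members, 5 lists of genes were read from the same fit. In none of them did a gene pass the adjusted threshold in either direction. Among 10 further SLC16 genes, 8 had a probe, 2 were at background on all arrays, SLC16A14 among them, and 5 were tested, of which 0 rose and 0 fell. Their median difference was 0.31 beside 0.087 for all tested probes, but -0.28 with quantile and -0.24 with cyclic loess scaling, so the list has no settled direction. SLC16A8, which encodes MCT3, the lactate transporter of the retinal pigment epithelium, gave 0.46 ± 0.30 (SD, n = 4; limma adjusted p = 0.658), and 0.26 with quantile scaling. SLC16A10, an aromatic amino acid transporter, gave 0.31 ± 0.29, 0.19 without calf 25 and -0.38 with quantile scaling. It was dim, with a median signal of 9.09, and was above background on 2 of 4 WP and 3 of 4 control arrays. SLC16A5 gave -0.12 ± 0.32.

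Among other carriers and chaperones of monocarboxylate transport, 3 of 5 genes were tested, with 0 called and a median of -0.015. SLC5A12 had a level of 5.66 ± 0.12 on WP and 5.48 ± 0.31 on control (SD, n = 4), a difference of 0.18 ± 0.27, which was 0.059 without calf 21 and -0.034 within slide row 1. MPC1, a subunit of the mitochondrial pyruvate carrier, gave -0.94, -1.18, 0.39 and 0.59 for calves 21, 23, 24 and 25. Its partner MPC2 was above background only on the WP array of calf 24. Embigin (EMB), another chaperone of these transporters, associated with MCT2 in rodents, was likewise above background on that array alone, whereas BSG was measured on all 8. NPTN, neuroplastin, a relative of basigin listed with the chaperones, was also measured on all 8, with levels of 3.47 ± 0.27 on WP and 3.48 ± 0.16 on control.

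The enzymes that make or use the carried acids were read next, with 10 of 13 tested, 0 called and a median of 0.20, which was 0.0047 without calf 21, 0.044 with quantile and 0.032 with cyclic loess scaling. PDK1, a kinase that shuts pyruvate dehydrogenase, gave 0.36 ± 0.48, and 0.13 without calf 21. BDH2, a cytosolic dehydrogenase, gave 0.35 ± 0.44, but 0.19 without calf 21 and -0.41 with quantile scaling. It was dim, with a median signal of 12.5, and was above background on 3 of 4 WP and 4 of 4 control arrays. LDHA, the lactate dehydrogenase subunit, gave -0.083 ± 0.11 (SD, n = 4), and -0.043 without calf 21. BDH1 gave 0.90, 0.18, -0.17 and -0.30 in calves 21, 23, 24 and 25. As for SLC16A1, its difference was the highest in calf 21 and negative in calf 25, but for BDH1 it was negative in calf 24 too.

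Of 15 genes that handle acid and sodium beside the transporters, 11 were tested and 0 called, with a median of 0.013, which was 0.15 without calf 25 and -0.045 without calf 24. SLC26A3, a chloride and bicarbonate exchanger, averaged 2.18 on WP and 3.06 on control, a difference of -0.89 ± 1.34 (SD, n = 4; limma adjusted p = 0.665). That difference was -0.43 without calf 23 and -1.46 without calf 25. The carbonic anhydrases CA2 and CA4 gave 0.60 ± 0.63 and 0.53 ± 0.95. CA4 was 0.060 without calf 23, and CA2 was 0.30 without calf 24 and 0.16 with cyclic loess scaling. CA2 was dim, with a median signal of 13.3 beside 554 for CA4. Probes with a surrogate on every array had a median difference of 0.60, and the part of background in the CA2 value was not tested. ATP1B1, a subunit of the sodium pump, gave -0.13 ± 0.43.

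Of 10 regulators and receptors known from other species to act on or beside monocarboxylate transporters, 8 were tested and 0 called, with a median of 0.27, or -0.015 with quantile and 0.068 without calf 24. HCAR1, the lactate receptor, gave 0.79 ± 1.56, with 2.83 in calf 24, and 0.12 without that calf. It was dim, with a median signal of 10.8, and was above background on 3 of 4 WP and 4 of 4 control arrays. FFAR2, a receptor of short-chain fatty acids with a median signal of 18.4, gave 0.25 ± 0.46, 0.033 without calf 24 and -0.19 with quantile scaling. HIF1A, the hypoxia factor that raises SLC16A3 in human cells, gave -0.14 ± 0.14 (SD, n = 4; limma adjusted p = 0.717) and was lower on WP in 4 of 4 calves. Without calf 21 its mean difference was -0.078.

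**Figure D4:**
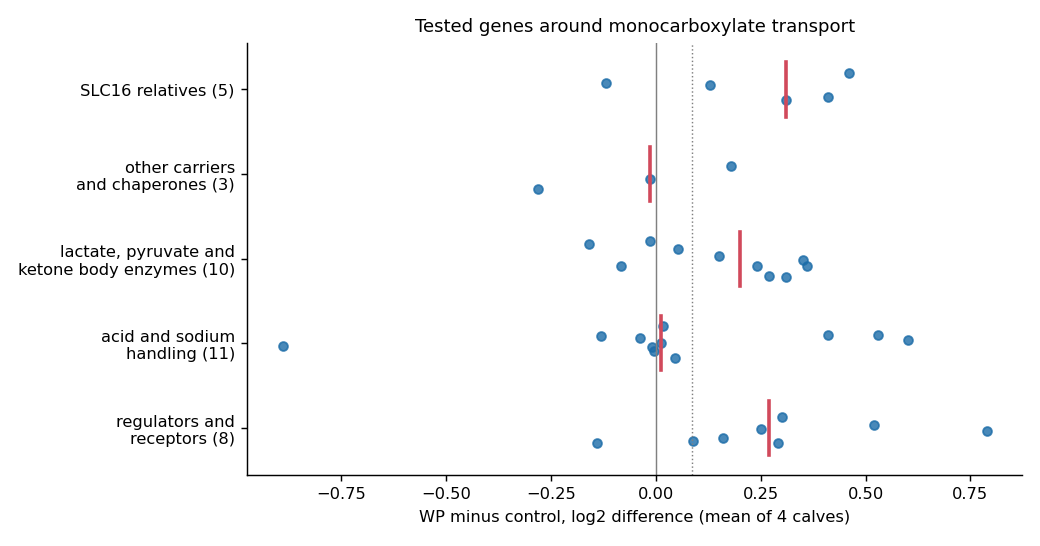
Mean WP minus control log2 difference over 4 calves of every tested gene in 5 lists around monocarboxylate transport, with the number tested in parentheses; the red bar is the list's median and the dotted line the median of all tested probes, 0.087. No point passed the adjusted threshold, and the genes of each list lie on both sides of 0.

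**Figure D5:**
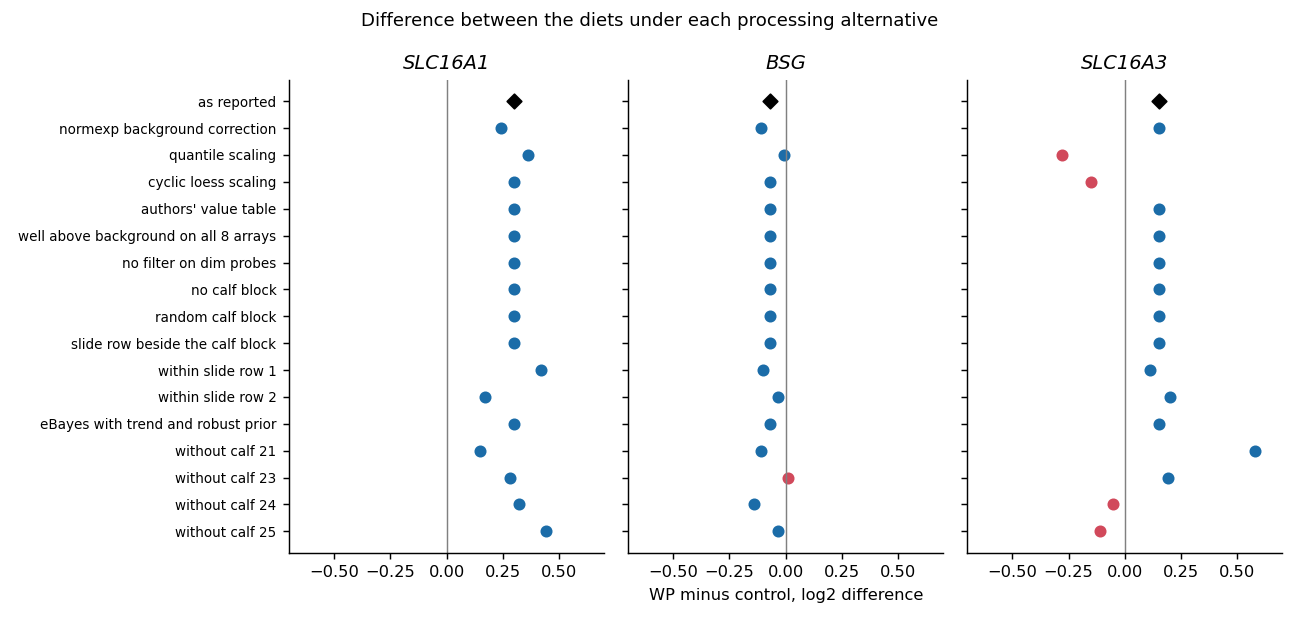
WP minus control log2 difference of SLC16A1, BSG and SLC16A3 as reported (black diamond) and under each of 16 alternatives (circles, red where the sign turned). SLC16A1 stays between 0.15 and 0.44, BSG turns sign without calf 23, and SLC16A3 turns with quantile and cyclic loess scaling and without calf 24 or calf 25. The alternatives for the calf block, slide row as a further block, the prior and the dim-probe filter cannot change these differences.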

How the data were processed

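Total RNA of 8 samples (500 ng each) was amplified, labelled with Cy3 and hybridised to 1 single-colour Agilent array each, per the labels' protocols. The deposited scanner files hold spot intensity and, per the file headers, come from Feature Extraction 11.0.1.1 (version 9.5 per the submitters' processing notes). The value table holds log2 values that the authors deposited; it equals log2 of the processed signal minus a constant per array and served as an alternative.

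Control spots (536) and outlier spots (97) were dropped, and log2 processed signal was centred on each array's 75th percentile. The 10236 of 15008 probes well above background on 4 or more arrays were tested with limma 3.58.1 in R 4.3.3 (calf as block, two-sided, Benjamini-Hochberg over all of them, threshold 0.05), which was also tested on simulated data. The pairing is by calf, from the labels and the cross-over. After removing diet means, the 2 arrays of calves 21, 23, 24 and 25 correlated at 0.00897, 0.195, 0.06 and 0.0475. RefSeq (ARS-UCD2.0) gave names only: 11194 probes matched through an accession, 3085 through the symbol, 38 through an older one. The number of arrays limits the precision.

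Members and lists were chosen with earlier results of these data known. Some results are not reported here. The text names every member, the 2 genes of smallest p per list and direction, and the 3 most alike genes per tested member; BDH1, MPC2, EMB and single markers were chosen after their values were seen. Alternatives covered background correction, scaling, the value table, the dim-probe filter, the calf block, slide row, the prior and each calf left out; each member has 1 probe, so averaging probes could not apply.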

Additional observations from a re-analysis of the deposited data

Results flagged for a closer look

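Of 34 groups of 4 values checked for a value far from the other 3 (the levels of each member on each diet, and the within-calf differences of members and of named list genes), 1 stood out, where chance gives about 5% of groups. The WP minus control difference of SLC16A8 was 0.016 in calf 25, against 0.63, 0.56 and 0.62 in calves 21, 23 and 24. No level or difference of the 6 members stood out in this way, including the SLC5A8 level of -3.03 on the WP array of calf 24.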

How the results depend on the processing

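No probe passed the adjusted threshold under any of the 16 alternatives, with 429 to 1427 probes at an unadjusted p under 0.05. The calf block changed no call: with no replicate block 0 probes passed. The values of SLC16A1, SLC16A3 and BSG were again 0.30, 0.15 and -0.068, which 1 array per calf and diet fixes in advance. Quantile and cyclic loess scaling moved the median difference of all tested probes to -0.015 and -0.004, beside 0.087 as reported. With quantile scaling the sign turned for SLC16A3 (-0.28), SLC16A10 (-0.38), BDH2 (-0.41), FFAR2 (-0.19) and NPTN (0.023), and with cyclic loess scaling for SLC16A3 (-0.15), SLC16A10 (-0.27), BDH2 (-0.15) and FFAR2 (-0.075). With normexp background correction SLC16A5 gave 0.024. Within slide row 1 SLC5A12 gave -0.034 and NPTN 0.014, and within row 2 MPC1 0.052 and ATP1B1 0.21. With each calf left out in turn, SLC16A1 ran from 0.15 to 0.44, SLC16A3 from -0.11 to 0.58, BSG from -0.14 to 0.010, SLC16A5 from -0.22 to 0.014, MPC1 from -0.58 to 0.014, NPTN from -0.071 to 0.085 and ATP1B1 from -0.32 to 0.021. SLC16A1 minus BSG ran from 0.26 to 0.47 and SLC16A3 minus SLC16A1 from -0.54 to 0.43. The causes were not tested. Signal over background limits SLC16A3, and SLC16A4, SLC16A7 and SLC5A8 had values only when no filter was applied. SLC5A8 then gave 1.24, with 4.58 in calf 24 against -0.56, 0.46 and 0.49 in calves 21, 23 and 25, and it was at background on 6 of 8 arrays.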
